A study of Mus musculus with 18 samples.

Results

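Retinol transport and retinoid metabolism was followed through 9 genes in primary mouse hepatocytes in which transthyretin (Ttr) was silenced and released from silencing. The genes were Rbp4, Aldh1a1, Aldh1a7, Adh1, Dhrs3, Retsat, Rxra, Rara and Cyp26a1, taken by symbol from 37991 genes in the count tables. All 9 passed the filter on low counts, which kept 11153 genes. They were chosen by name and by role in the pathway with results from these libraries already known, and which of the measured levels or fold changes entered the choice is not recorded. Every level, difference and adjusted p-value of these genes is therefore a description and stands as support for nothing further.

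The cells were plateable, cryopreserved hepatocytes from male CD-1 mice, bought from a commercial supplier. A REVERSIR is a short synthetic oligonucleotide built to pair with the guide strand of an siRNA and so release its target, here an siRNA of the GalNAc-conjugate kind that the series title names, with a sugar that hepatocytes take up. The 6 groups, of 3 libraries each, received the Ttr siRNA with the TTR REVERSIR, the siRNA alone, the siRNA with a scrambled REVERSIR, the TTR REVERSIR alone, the scrambled REVERSIR alone, or phosphate-buffered saline (PBS). The labels give neither dose nor time, and they do not say whether replicates came from separate lots of cells, so p-values measure the spread between these libraries, which may be technical.

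Retinol leaves the liver bound to retinol-binding protein, the product of Rbp4, and this small protein travels in plasma as a complex with transthyretin. Inside cells, alcohol dehydrogenases and short-chain dehydrogenases convert retinol and retinal into each other, and retinaldehyde dehydrogenases oxidise retinal to retinoic acid. Retinoic acid acts through heterodimers of retinoic acid receptors and retinoid X receptors, and CYP26 enzymes break it down. In the liver, hepatocytes make and secrete retinol-binding protein, while stellate cells hold most of the retinyl ester store.

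Library totals lay between 1755819 and 10145265 counts. PBS replicates 1 and 2 stood apart by mitochondrial ribosomal RNA, at 24.3% and 24.1% of their counts, whereas the other libraries, PBS replicate 3 included, held 1.69% to 9.56%. Levels are given as CPM, a gene's counts scaled to a common library size, after TMM scaling, a correction for library composition. The 11 hepatocyte markers, Ttr left out, summed to between 48420 and 62140 CPM over the 18 libraries. The 18 markers of stellate cells and fibroblasts summed to 243 to 321 CPM, mostly from Vim and Reln, and the defining genes Lrat, Des, Col1a1, Ngfr, Hand2 and Colec11 averaged between 0.0342 and 0.678 CPM. The 11 markers of Kupffer cells and macrophages summed to 281 to 387 CPM, nearly all of it from Cd68 (317 CPM on average) with the other 10 averaging 4.26 CPM or less, the 10 of endothelium to 51.6 to 75.3 CPM and the 8 of cholangiocytes to 12.9 to 21.9 CPM. In bulk libraries, fewer cells of a type and less RNA per cell cannot be told apart.

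The targeted gene followed the labels. Ttr stood at 1182, 1001 and 978 CPM with siRNA plus TTR REVERSIR, at 221, 254 and 253 CPM with siRNA alone, at 227, 225 and 226 CPM with siRNA plus scrambled REVERSIR, at 1357, 1083 and 1355 CPM with TTR REVERSIR alone, at 1135, 1064 and 1154 CPM with scrambled REVERSIR alone, and at 1034, 1080 and 1220 CPM in PBS. No library of the siRNA group or the siRNA plus scrambled REVERSIR group, together called silenced here, overlapped any other library. The contrast of those 6 silenced libraries with the 9 libraries of the siRNA plus TTR REVERSIR, TTR REVERSIR and scrambled REVERSIR groups, with PBS left out, gave a log2 fold change of −2.29 for Ttr (adjusted p = 2.33e-18, edgeR quasi-likelihood test over all genes kept).

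Per kilobase of exon, the 9 genes covered more than 2 orders of magnitude. Rbp4 averaged 678 CPM per kb over the 18 libraries. Aldh1a1, a retinaldehyde dehydrogenase, followed at 84.2 CPM per kb, and Adh1, a class I alcohol dehydrogenase that oxidises retinol as well as ethanol, at 53.7 CPM per kb. The receptor gene Rxra averaged 28.8 CPM per kb. Aldh1a7, a close relative of Aldh1a1, averaged 15.1 CPM per kb, Dhrs3, which reduces retinal back to retinol, 11.8 CPM per kb, and Retsat, which saturates a double bond of retinol, 10.2 CPM per kb. Cyp26a1, the retinoic acid hydroxylase, and the receptor gene Rara were lowest, at 4.56 and 3.37 CPM per kb. The ranges of Aldh1a7, Dhrs3 and Retsat over libraries overlapped, as did those of Aldh1a1 and Adh1 and those of Cyp26a1 and Rara. Neighbours were not compared within each library, so their order was not tested.

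**Figure D1:**
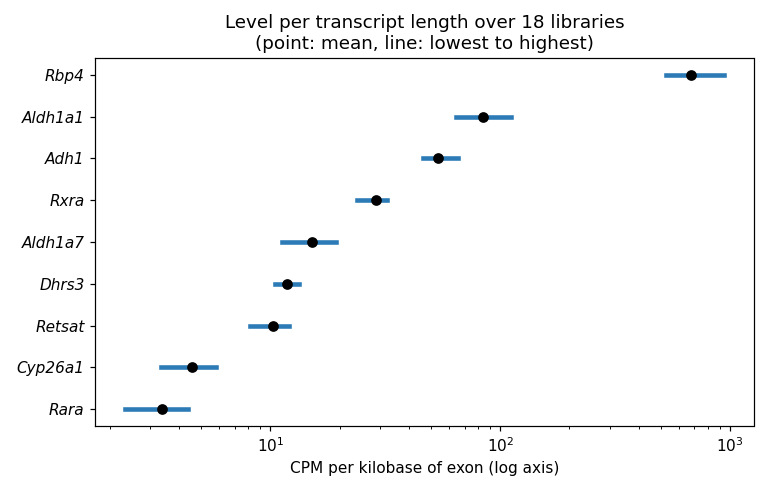
Level of each of the 9 genes in CPM per kilobase of exon, on a log axis, as the mean (point) and the lowest to highest (line) of 18 libraries. Rbp4, at 678 CPM per kb, stands apart from the other 8 genes, and Cyp26a1 and Rara lie lowest.

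Of the 9 genes, 4 lie on chromosome 19 of the NCBIM37 build, the build the counts were made on. Aldh1a1 (ENSMUSG00000053279, positions 20676451 to 20717952, plus strand) and Aldh1a7 (ENSMUSG00000024747, 20767443 to 20802052, minus strand) are protein-coding neighbours separated by 49.5 kb. Cyp26a1 (37772298 to 37776018, plus strand) and Rbp4 (ENSMUSG00000024990, 38191110 to 38199811, minus strand) are separated by 415 kb. Adh1 lies on chromosome 3 (137923955 to 137953662), Dhrs3 on chromosome 4 (144482730 to 144518112), Retsat on chromosome 6 (72548469 to 72558408), Rxra on chromosome 2 (27531960 to 27618477) and Rara on chromosome 11 (98789132 to 98836256). Adh1 overlaps the annotated transcript Gm16559 on the opposite strand, and no label states whether the counting used strand.

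The coding sequences of Aldh1a1 and Aldh1a7 are shown because their likeness bears on how far their counts can be separated. Each has 1506 coding bases in the annotation, with 126 differences and 91.6% identity, and the longest identical run is 100 bases. Of all 36-base windows of the Aldh1a1 transcript, 11.5% also occur in Aldh1a7; the share is 7.53% for 50-base windows and 2.53% for 75-base windows. No label states the read length, so reads shared by the 2 genes could be counted for either or for neither, and their separate values are uncertain to that extent. The first 120 coding bases of each follow, 5′ to 3′ on the coding strand, with the 10 differing bases in capitals.
Aldh1a1: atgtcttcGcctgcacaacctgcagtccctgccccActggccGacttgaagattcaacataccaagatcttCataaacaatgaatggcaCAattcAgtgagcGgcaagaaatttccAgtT
Aldh1a7: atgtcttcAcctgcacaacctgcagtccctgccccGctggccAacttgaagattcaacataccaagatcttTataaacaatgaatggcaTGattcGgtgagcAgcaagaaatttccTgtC

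The Cyp26a1 promoter is shown because it holds the repeat through which retinoic acid receptors are known to raise this gene, which makes Cyp26a1 a common readout of retinoic acid in cells. The 120 bases before the annotated start, chr19:37772178-37772297 of NCBIM37, plus strand, are given 5′ to 3′ with both half-sites of a direct repeat with a spacer of 5 bases (DR5) in capitals. The repeat lies 16 to 32 bases before the start.
Cyp26a1 promoter: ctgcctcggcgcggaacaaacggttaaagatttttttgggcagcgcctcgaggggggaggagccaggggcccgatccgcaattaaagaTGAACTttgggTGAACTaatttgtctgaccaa
The search used the half-site AGGTCA, with G also allowed as its first letter and T as the third, in direct repeat with 1, 2 or 5 bases between them (DR1, DR2 and DR5), on both strands. RefSeq windows of 250 bases before to 50 after each start (GRCm38.p6) gave 17 windows for the 9 genes. The DR5 was found in 1 of those 17, that of Cyp26a1, and in 32 of 32851 windows overall (0.0974%). DR1 and DR2 were found in none of the 17, against 0.222% and 0.268% of all windows, which says only that these letters are not in these windows.

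Rbp4, the gene for the carrier that transthyretin binds in plasma, gave no call in any comparison. It stood at 684, 829 and 856 CPM with siRNA plus TTR REVERSIR, at 939, 878 and 732 CPM with siRNA alone, at 941, 927 and 795 CPM with siRNA plus scrambled REVERSIR, at 768, 879 and 919 CPM with TTR REVERSIR, at 796, 867 and 890 CPM with scrambled REVERSIR, and at 1216, 1151 and 763 CPM in PBS. The 5 treated groups overlapped one another, and the 2 highest libraries of all were PBS replicates 1 and 2. PBS replicate 3, at 763 CPM, lay among the treated libraries.

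Silencing was first compared with PBS left out of the contrast. The PBS libraries stayed in the fit, so they enter the estimate of spread behind the SE and interval. With only the compared groups in the fit, 0 of the 9 genes were called. Over the 6 silenced libraries Rbp4 ran between 732 and 941 CPM with a median of 902 CPM, and over the 9 unsilenced libraries between 684 and 919 CPM with a median of 856 CPM. The log2 fold change was 0.06 ± 0.08 (SE; 95% interval −0.11 to 0.23; adjusted p = 0.993). At the same contrast Ttr, the target of the siRNA, had a log2 fold change of −2.29.

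The other 8 genes gave SEs of 0.06 to 0.11 on the log2 scale in that contrast. No member of the 9 was called, beside 0.00897% of all genes tested, which was Ttr itself. The median absolute log2 fold change was 0.03 over the 9 genes and 0.06 over all genes. Retsat had the largest estimate, 0.11 (95% interval −0.04 to 0.26), with 30.0 to 38.3 CPM in the silenced libraries and 25.9 to 36.7 CPM in the unsilenced libraries. The intervals of Aldh1a1 (−0.03 to 0.22), Adh1 (−0.15 to 0.09), Dhrs3 (−0.12 to 0.14) and Rxra (−0.07 to 0.16) all covered 0. Those of the low genes were wider, at −0.22 to 0.25 for Rara and −0.24 to 0.18 for Cyp26a1.

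**Figure D2:**
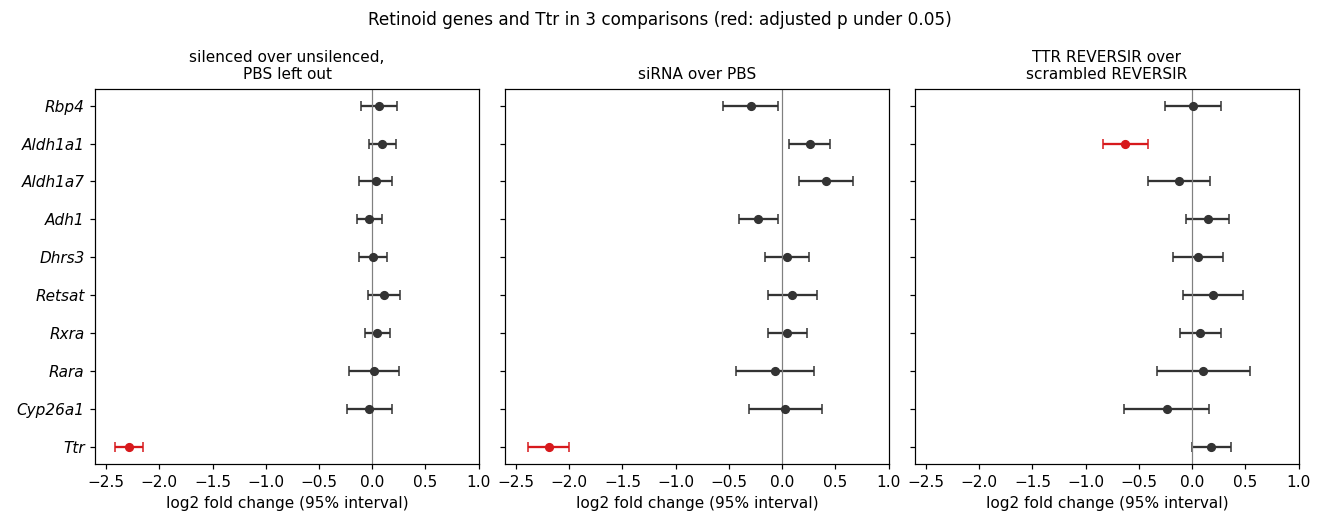
Log2 fold change with its 95% interval for the 9 genes and Ttr, for silenced over unsilenced libraries with PBS left out, siRNA over PBS, and TTR REVERSIR over scrambled REVERSIR. Red marks an adjusted p under 0.05. Ttr lies at −2.29 in the first comparison while the 9 genes lie at 0.11 or nearer to 0, and Aldh1a1 at −0.63 is the sole red point among the 9 genes.

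The release of Ttr by the TTR REVERSIR was also seen without a call among the 9 genes. In siRNA plus TTR REVERSIR over siRNA, 0 of 9 were called (0.00897% of all genes, again Ttr), and Rbp4 had a log2 fold change of −0.10 (95% interval −0.37 to 0.16). Aldh1a1 had the largest estimate of the 9 there, −0.34 (−0.53 to −0.15; adjusted p = 0.643), at 169, 142 and 160 CPM with siRNA plus TTR REVERSIR and 169, 197 and 228 CPM with siRNA, and it was called with no filter on low counts (−0.33, adjusted p = 0.0108). In siRNA plus TTR REVERSIR over siRNA plus scrambled REVERSIR, 0 of 9 were called (0.00897% of all genes), and Rbp4 had −0.17 (−0.43 to 0.09). In siRNA plus scrambled REVERSIR over scrambled REVERSIR, 0 of 9 were called (0.0179% of all genes), and Rbp4 had 0.06 (−0.20 to 0.32). In siRNA plus TTR REVERSIR over TTR REVERSIR, 0 of 9 were called by edgeR (0% of all genes, with 495 genes at an unadjusted p under 0.05 and none called by DESeq2), and Rbp4 had −0.11 (−0.38 to 0.15).

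Against PBS, Rbp4 was lower on average in all 5 treated groups, and the control group itself was split. Rbp4 averaged 790 ± 92.4 CPM with siRNA plus TTR REVERSIR, 850 ± 106 CPM with siRNA, 887 ± 80.7 CPM with siRNA plus scrambled REVERSIR, 855 ± 78.1 CPM with TTR REVERSIR, 851 ± 49.0 CPM with scrambled REVERSIR and 1043 ± 245 CPM in PBS (SD, n = 3 each). The 5 comparisons share the PBS libraries, and each treated group overlapped PBS. The lowest log2 fold change was −0.40 ± 0.13, with siRNA plus TTR REVERSIR (adjusted p = 0.101), and the others lay between −0.30 and −0.23, with adjusted p between 0.188 and 0.347.

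The fold changes moved with the scaling and the PBS libraries used, and the calls with the filter and the PBS libraries. With no filter on low counts, Rbp4 was called in 4 of the 5 comparisons, all but siRNA plus scrambled REVERSIR, at −0.39 to −0.29 (adjusted p between 0.000112 and 0.0174). Their SEs were then 0.08, against 0.13 in the main fit, and 424 to 677 of all genes were called in the 5 comparisons. Without PBS replicate 3, Rbp4 was called in all 5 comparisons, with log2 fold changes of −0.58 (siRNA plus TTR REVERSIR), −0.48 (siRNA), −0.42 (siRNA plus scrambled REVERSIR), −0.47 (TTR REVERSIR) and −0.48 (scrambled REVERSIR), and adjusted p between 0.000811 and 0.012; in the same order 1151, 1365, 1142, 978 and 749 of all genes were then called, against 88, 292, 68, 78 and 47 with PBS replicate 3. Without PBS replicates 1 and 2 together, Rbp4 had positive log2 fold changes of 0.06, 0.16, 0.22, 0.17 and 0.16 in the same order of groups, none called; the one PBS library left is then assumed to vary like the other groups. With libraries scaled by their totals alone, which moved the median gene by 0.29 to 0.33, Rbp4 had −0.05, 0.05, 0.11, 0.04 and 0.02 in that order, none called. Rbp4 was highest in the 2 PBS libraries with 24.3% and 24.1% of mitochondrial ribosomal RNA, while PBS replicate 3 had 763 CPM at 5.45%. With mitochondrially encoded genes left out of the counts, Rbp4 was called in none of the 5 comparisons. That setting keeps the same libraries, and what part the share has in the Rbp4 level was not tested.

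**Figure D3:**
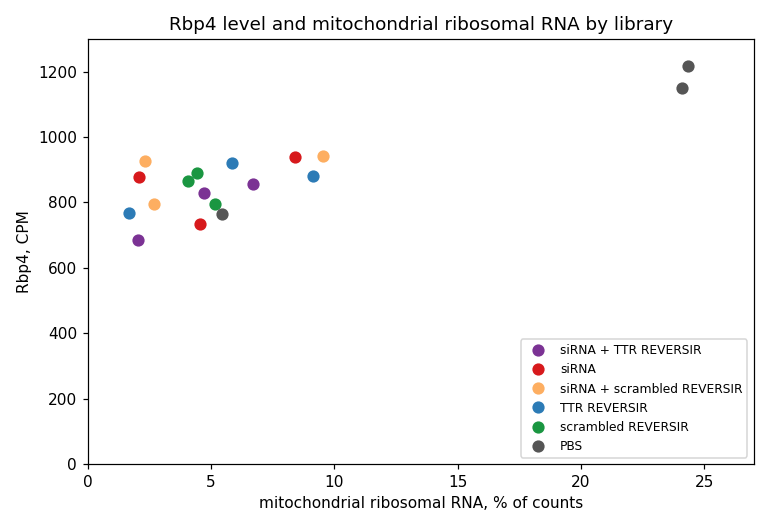
Rbp4 in CPM against the percent of counts in mitochondrial ribosomal RNA, 1 point for each of 18 libraries, coloured by group. PBS replicates 1 and 2 lie alone at the upper right, with 1216 and 1151 CPM, and PBS replicate 3, at 763 CPM, lies among the treated libraries.

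The genes most like Rbp4 over the 18 libraries had the same pair of high PBS libraries. Among the 8479 genes whose mean log2 CPM reached 3, the highest Pearson correlations with Rbp4 in log2 CPM were those of Rraga (0.91), a small GTPase of nutrient sensing, Hsp90ab1 (0.89), a cytosolic chaperone, and the transcript Gm14456 (0.87). Hsp90ab1 stood at 1709 and 1601 CPM in PBS replicates 1 and 2, at 1088 CPM in PBS replicate 3 and at 988 to 1405 CPM elsewhere. Rraga stood at 53.2 and 53.4 CPM in PBS replicates 1 and 2, at 31.8 CPM in PBS replicate 3 and at 25.5 to 42.3 CPM elsewhere. These correlations are a description over libraries of one kind of cell that differ in depth and in mitochondrial ribosomal RNA.

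The next genes of the pathway are those that convert retinol to retinal. Adh1 stood at 126, 116 and 111 CPM with siRNA plus TTR REVERSIR, at 116, 125 and 105 CPM with siRNA, at 112, 115 and 123 CPM with siRNA plus scrambled REVERSIR, at 134, 116 and 119 CPM with TTR REVERSIR, at 103, 111 and 125 CPM with scrambled REVERSIR, and at 142, 147 and 113 CPM in PBS. Its 2 highest libraries were again PBS replicates 1 and 2, and every treated group overlapped PBS. Against PBS the log2 fold changes of Adh1 ran between −0.26 and −0.11 and none was called. Without PBS replicate 3, Adh1 was called in 4 of the 5 comparisons, at −0.30 with siRNA plus TTR REVERSIR, −0.33 with siRNA, −0.31 with siRNA plus scrambled REVERSIR and −0.36 with scrambled REVERSIR, at the setting that called 749 to 1365 of all genes. Without PBS replicates 1 and 2 together, Adh1 had 0.06 with siRNA plus TTR REVERSIR, 0.03 with siRNA, 0.05 with siRNA plus scrambled REVERSIR, 0.14 with TTR REVERSIR and −0.01 with scrambled REVERSIR, none called. With library totals alone its 5 values ran between 0.05 and 0.21, none called. The correlation of Adh1 with Rbp4 was 0.53 over 18 libraries and −0.10 over the 15 without PBS.

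Dhrs3, the retinal reductase, was the flattest of the enzymes together with the receptor gene Rxra. Dhrs3 ran between 30.9 and 39.1 CPM over the 15 treated libraries and stood at 30.7, 34.2 and 33.8 CPM in PBS. The siRNA plus scrambled REVERSIR libraries, at 35.4, 37.0 and 35.2 CPM, lay just above the PBS libraries without overlap, with a log2 fold change of 0.13 ± 0.10 that was not called. Retsat stood at 26.5, 30.4 and 29.2 CPM with scrambled REVERSIR, below its 30.9, 34.7 and 34.3 CPM in PBS without overlap, with a log2 fold change of −0.21 ± 0.14 that was not called. In its other groups Retsat ran between 25.9 and 38.3 CPM. The share of all genes whose groups did not overlap was not counted, here or below. With 3 libraries a group, a lack of overlap is therefore a description only.

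Aldh1a1 gave the single call among the 9 genes. It was lower with TTR REVERSIR alone than with scrambled REVERSIR alone, at 147, 139 and 132 CPM against 198, 229 and 218 CPM. The groups did not overlap, though the share of all genes without overlap was not counted. The means were 139 ± 7.49 CPM with TTR REVERSIR and 215 ± 15.7 CPM with scrambled REVERSIR (SD, n = 3 each), a log2 fold change of −0.63 ± 0.10 (SE; 95% interval −0.84 to −0.42; adjusted p = 0.0193, edgeR). It was 1 of 9 genes called, where 0.0179% of all genes were called. The other call was Serpina7, thyroxine-binding globulin, at −0.66 ± 0.11 (adjusted p = 0.0193), named here after its value was seen.

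That call was lost when some single libraries were left out, though the estimate moved little. Leaving out one library at a time kept the log2 fold change of Aldh1a1 between −0.68 and −0.58. The call was kept without scrambled REVERSIR replicate 1 and without TTR REVERSIR replicate 2. It was also kept by DESeq2, with scaling by size factors of the DESeq2 type, and with no filter on low counts. The replicate block, the fit of the compared groups only, and the fit without mitochondrially encoded genes kept it too. The call was lost without scrambled REVERSIR replicate 2 (adjusted p = 0.284), without scrambled REVERSIR replicate 3 (adjusted p = 0.138), without TTR REVERSIR replicate 1 (adjusted p = 0.0749) and without TTR REVERSIR replicate 3 (adjusted p = 0.285). It was also lost when libraries were scaled by their totals alone (−0.61, adjusted p = 1). Depth was lower in those groups than in most others, at 1755819 to 2896366 counts with scrambled REVERSIR and 2217585 to 6392140 counts with TTR REVERSIR.

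In the presence of the siRNA the TTR REVERSIR gave no such difference in Aldh1a1. It stood at 169, 142 and 160 CPM with siRNA plus TTR REVERSIR and at 153, 159 and 173 CPM with siRNA plus scrambled REVERSIR, which overlapped, with a log2 fold change of −0.04 (95% interval −0.23 to 0.15). The difference between the 2 contrasts was 0.59 ± 0.14 on the log2 scale (95% interval 0.31 to 0.87), with an unadjusted p of 0.000247 from edgeR's quasi-likelihood test and an adjusted p = 0.889. It did not pass the threshold: 0 of 9 genes were called, beside 0.00897% of all genes, which was Ttr. This contrast was chosen after the Aldh1a1 values were seen.

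The remaining Aldh1a1 values placed the scrambled REVERSIR and siRNA groups high. Aldh1a1 stood at 169, 197 and 228 CPM with siRNA and at 175, 145 and 178 CPM in PBS, which overlapped. Scrambled REVERSIR lay above PBS without overlap, with a log2 fold change of 0.37 ± 0.10 (adjusted p = 0.083), and siRNA plus scrambled REVERSIR lay below scrambled REVERSIR without overlap, at −0.42 ± 0.10 (adjusted p = 0.319). The siRNA plus scrambled REVERSIR difference from scrambled REVERSIR was called when the fit held the compared groups only (−0.41, adjusted p = 0.0278) and with no filter on low counts (−0.40, adjusted p = 0.000331). The scrambled REVERSIR difference from PBS was called without PBS replicate 3 (0.42, adjusted p = 0.0185) and with no filter (0.36, adjusted p = 0.000865). In the order of group means, scrambled REVERSIR (215 CPM) and siRNA (198 CPM) came first and overlapped, then PBS (166 CPM), siRNA plus scrambled REVERSIR (161 CPM) and siRNA plus TTR REVERSIR (157 CPM), which overlapped one another, and TTR REVERSIR (139 CPM), which overlapped PBS and siRNA plus TTR REVERSIR.

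Aldh1a7 was lower than Aldh1a1 in every library and was not called in any of the 11 comparisons. It stood at 31.2, 29.4 and 33.3 CPM with siRNA plus TTR REVERSIR, at 29.8, 39.7 and 36.4 CPM with siRNA, at 28.4, 28.5 and 34.0 CPM with siRNA plus scrambled REVERSIR, at 34.6, 30.0 and 26.3 CPM with TTR REVERSIR, at 33.7, 33.5 and 33.7 CPM with scrambled REVERSIR, and at 26.98, 23.2 and 29.8 CPM in PBS. The siRNA and scrambled REVERSIR libraries lay above PBS without overlap, though the lowest siRNA library and the highest PBS library nearly met. The share of all genes that lay apart from PBS in this way was not counted. The log2 fold changes were 0.41 ± 0.12 (adjusted p = 0.0647) with siRNA and 0.34 ± 0.14 (adjusted p = 0.268) with scrambled REVERSIR. The siRNA difference was called without PBS replicate 3 (0.49, adjusted p = 0.019) and with no filter on low counts (0.41, adjusted p = 0.0218). In TTR REVERSIR over scrambled REVERSIR, where Aldh1a1 was called, Aldh1a7 had −0.13 ± 0.14 (95% interval −0.42 to 0.16). The 2 genes correlated at 0.63 over 18 libraries and at 0.69 over the 15 without PBS, and they share sequence as shown above. The ratio of Aldh1a1 to Aldh1a7 counts averaged 5.02 ± 0.346 with siRNA plus TTR REVERSIR, 5.63 ± 0.647 with siRNA, 5.34 ± 0.242 with siRNA plus scrambled REVERSIR, 4.62 ± 0.382 with TTR REVERSIR, 6.40 ± 0.483 with scrambled REVERSIR and 6.25 ± 0.263 in PBS (SD, n = 3 each). TTR REVERSIR overlapped siRNA plus TTR REVERSIR and siRNA in this ratio.

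**Figure D4:**
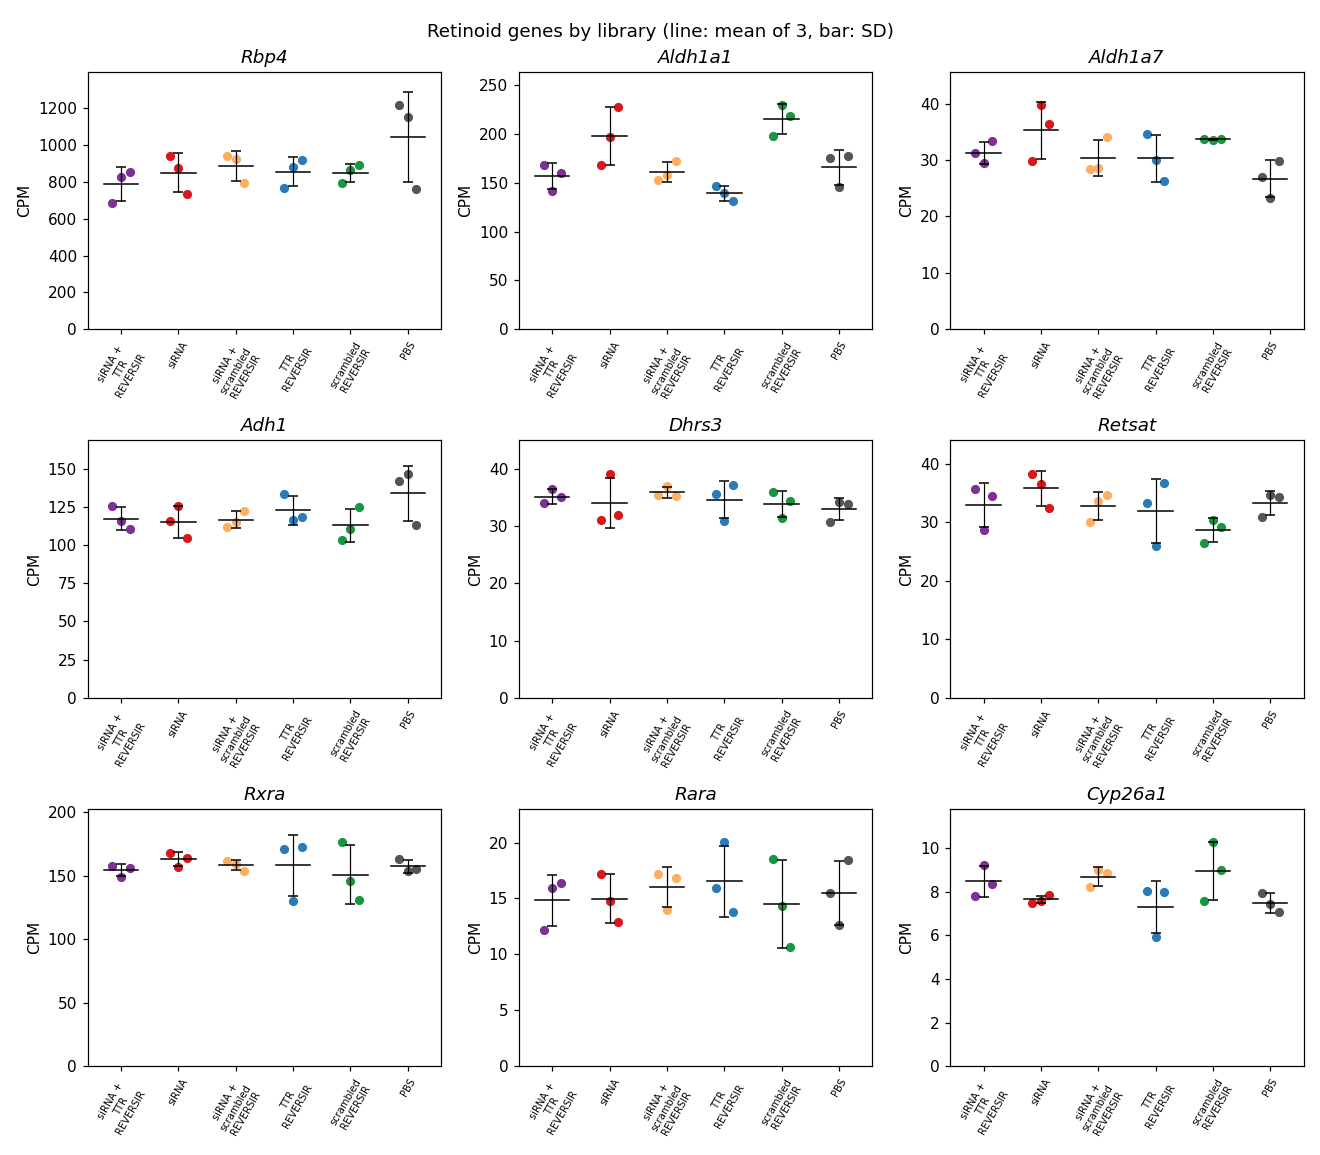
CPM after TMM scaling of each of the 9 genes in every library, by group, with the mean of 3 (line) and SD (bar); each axis starts at 0. Rbp4 and Adh1 are highest in PBS replicates 1 and 2, and the Aldh1a1 libraries of TTR REVERSIR, at 132 to 147 CPM, lie below those of scrambled REVERSIR, at 198 to 229 CPM.

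The receptors and the retinoic acid target stood close to level. Rxra, the retinoid X receptor that pairs with many nuclear receptors in hepatocytes, ran between 131 and 176 CPM over the treated libraries and stood at 163, 154 and 155 CPM in PBS. Its spread was largest with TTR REVERSIR (158 ± 24.1 CPM) and scrambled REVERSIR (151 ± 23.1 CPM), against 157 ± 5.03 CPM in PBS (SD, n = 3 each), and every group overlapped PBS. Rara ran between 10.7 and 20.0 CPM over the treated libraries and stood at 15.5, 12.6 and 18.4 CPM in PBS.

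Cyp26a1 carried few reads, 13 to 83 counts a library, which limits what could be detected. It stood at 7.81, 9.23 and 8.37 CPM with siRNA plus TTR REVERSIR, at 7.50, 7.59 and 7.84 CPM with siRNA, at 8.21, 8.996 and 8.86 CPM with siRNA plus scrambled REVERSIR, at 8.03, 5.91 and 7.97 CPM with TTR REVERSIR, at 7.57, 10.3 and 8.995 CPM with scrambled REVERSIR, and at 7.93, 7.44 and 7.06 CPM in PBS. Only the siRNA plus scrambled REVERSIR libraries lay above all PBS libraries, with a log2 fold change of 0.21 ± 0.15 (95% interval −0.11 to 0.53) that was not called. The counts behind Rara, 19 to 172 a library, set a similar limit.

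Counted over all 9 genes, 0 were called against PBS in each of the 5 treated groups. The share of all genes called was 0.789% with siRNA plus TTR REVERSIR, 2.62% with siRNA, 0.61% with siRNA plus scrambled REVERSIR, 0.699% with TTR REVERSIR and 0.421% with scrambled REVERSIR. At an unadjusted p under 0.05 the 9 genes gave 2, 4, 1, 2 and 4 in the same order, and all genes 1974, 2241, 1975, 1825 and 1636. By DESeq2 the 9 genes gave 1 call, Aldh1a1 in scrambled REVERSIR over PBS (0.37, adjusted p = 0.0319). The median absolute log2 fold change of the 9 genes lay between 0.09 and 0.13 in 4 of these comparisons. In each of those 4 it was below that of all genes, which lay between 0.13 and 0.15. In scrambled REVERSIR over PBS it was 0.26, where that of all genes was 0.15. In the authors' deposited tables of comparisons with PBS, 2 values of the 9 genes had an adjusted p under 0.05, Aldh1a1 with scrambled REVERSIR (log2 fold change 0.30, adjusted p = 0.0247) and Aldh1a7 with siRNA (0.29, adjusted p = 0.0451). Another 13 values had no adjusted p, among them all those of Rara and Cyp26a1, which therefore could not be called. The deposited log2 fold changes were smaller in size, for example −1.85 for Ttr with siRNA, against −2.19 in the edgeR fit. The share of all genes called in those tables was not counted, so the 2 values cannot be set beside it. The DESeq2 fit made here called 169 of all genes in scrambled REVERSIR over PBS and 386 in siRNA over PBS.

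The wider pathway was read through 6 lists, which leave out the 9 genes. Of 15 matched retinol carriers, receptors and uptake genes 8 were tested, of 11 retinyl ester storage and carotenoid cleavage genes 9, of 23 retinol and retinal oxidoreductases 18, of 10 retinal dehydrogenases and retinoic acid breakdown genes 6, of 24 receptors, partners and cofactors 22, and of 17 retinoic acid target genes 7. In siRNA over PBS 2 of the 67 different genes tested were called (2.99%), a share near the 2.62% of all genes. Ugt1a1, the bilirubin glucuronidating enzyme, fell (log2 fold change −0.54 ± 0.13, adjusted p = 0.0308) and Nr1h3, the oxysterol receptor LXR alpha, which pairs with RXR, rose (0.52 ± 0.13, adjusted p = 0.0308). None of the lists had a call in the other 10 of the 11 comparisons. Without PBS replicates 1 and 2 together, 1 gene in all, Ttr, was called in siRNA over PBS, so neither of these calls held there.

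In silenced over unsilenced libraries the gene with the smallest p within each of the 6 lists was, list by list, Fabp5, a fatty acid carrier that can also carry retinoic acid (0.11 ± 0.08), Pnpla3, a lipase (−0.45 ± 0.27), Rdh11, a retinal reductase (−0.11 ± 0.05), Ugt1a1 (−0.17 ± 0.09), Rxrg, a retinoid X receptor (0.60 ± 0.25), and the retinoic acid receptor and target gene Rarb (−0.10 ± 0.11), on the log2 scale with SE. Each had an adjusted p of 0.991. The 2 largest estimates, of Rxrg and Pnpla3, rest on few reads, at 1.98 and 1.42 CPM on average. List medians in this contrast lay between −0.01 and 0.04, beside 0.002 over all genes.

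Several textbook members of retinoid handling were at or near 0 in these cells. Stra6, a retinol-binding protein receptor, and the retinoid carriers Crabp1, Crabp2 and Rbp7 had 0 counts in all 18 libraries. Lrat, which makes retinyl esters in stellate cells, had 72 counts over the 18 libraries, Cyp26b1 31, Aldh1a2 3 and Aldh1a3 2. By contrast, 1300002K09Rik, from the list of retinol carriers, receptors and uptake genes, averaged 188 CPM, or 19.6 CPM per kb. The carotenoid cleavage gene Bcmo1 averaged 79.1 CPM per kb, and Ces3a, of a carboxylesterase family that includes retinyl ester hydrolases, 407 CPM per kb. Rdh7, a retinol dehydrogenase, averaged 35.5 CPM per kb, and Tgm2, a transglutaminase induced by retinoic acid, 843 CPM per kb.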

How the data were processed

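Total RNA of 18 libraries was sequenced. Per the submitters' processing notes the authors used STAR, DESeq2 and the NCBIM37 build. Versions, the counting tool, strand use and read length: not given in the sources used here. Deposited count tables hold whole-number counts per gene, unnormalised. The authors' deposited tables of comparisons with PBS hold a mean signal of scaled counts, log2 fold changes, a score for the test statistic, and p-values. Gene symbols came from the GENCODE annotation of NCBIM37 for 37205 of 37991 genes and from the deposited tables for 49.

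The counts were fitted in R 4.3.3 with edgeR 4.0.16 (TMM, filterByExpr by group, glmQLFit and glmQLFTest), as 1 model of group over all 18 libraries with 12 residual degrees of freedom. Two-sided p-values were Benjamini-Hochberg adjusted over 11153 genes, and a call is an adjusted p under 0.05. SE is the fold change over the square root of F. Log2 CPM used a prior count of 2, and CPM per kb used exon length. DESeq2 1.42.0 was an alternative, beside other scalings, no filter, a replicate block and left-out libraries. Further alternatives left out mitochondrially encoded genes or fitted only the compared groups. The fit was tested on simulated data. Counts limit precision to counting error and the spread between libraries.

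The 9 genes and the lists were chosen with earlier results of these data known. Named besides them were Ttr, list genes that were called or else had the smallest p in the silencing contrast, and the 3 genes most correlated with Rbp4; other genes are named as absent or high after their values were seen. Replicate numbers were not treated as pairs in the main fit: of 45 same-number pairs across groups, 6 had deviations correlated over 0.1 (range −0.15 to 0.29). Pairs with different numbers were not set beside them. Within groups, no 2 libraries were duplicates, and pairs across groups were not checked for this.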

Additional observations from a re-analysis of the deposited data

How the results depend on the processing

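Of the log2 fold changes of the 9 genes under other settings, 1371 stayed on the same side of the threshold, 37 crossed into a call, 5 lost one, and no called value changed sign. With libraries scaled by totals alone, 5 of the 9 genes were called with siRNA, 3 with siRNA plus scrambled REVERSIR, 2 with scrambled REVERSIR, 2 with TTR REVERSIR and 3 with siRNA plus TTR REVERSIR, each over PBS, and 0 in TTR REVERSIR over scrambled REVERSIR. That scaling moved the median of all genes over PBS by 0.29 to 0.33 on the log2 scale and called 1580 to 4089 genes, 1564 to 4067 of them higher, against 47 to 292 genes, 13 to 113 higher, with TMM. With no filter on low counts, calls were 3 (siRNA over PBS), 2 (scrambled REVERSIR over PBS), and 1 each for TTR REVERSIR over PBS, siRNA plus TTR REVERSIR over PBS, siRNA plus TTR REVERSIR over siRNA, and siRNA plus scrambled REVERSIR over scrambled REVERSIR. That last comparison also gave 1 with only the compared groups in the fit, and DESeq2 gave 1 for scrambled REVERSIR over PBS; the cause was not tested. Leaving out 1 library gave 0 to 3 calls with siRNA, 0 to 2 with siRNA plus scrambled REVERSIR, 0 to 3 with scrambled REVERSIR, 0 to 1 with TTR REVERSIR and 0 to 2 with siRNA plus TTR REVERSIR over PBS, each maximum without PBS replicate 3, and 0 to 1 in TTR REVERSIR over scrambled REVERSIR.

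Over all genes, the siRNA, siRNA plus scrambled REVERSIR, scrambled REVERSIR, TTR REVERSIR and siRNA plus TTR REVERSIR comparisons with PBS gave 292, 68, 47, 78 and 88 calls; no filter gave 677, 564, 424, 498 and 585, DESeq2 386, 162, 169, 155 and 180, only the compared groups 1, 7, 7, 0 and 1, and leaving out PBS replicates 1 and 2 together 1, 1, 0, 0 and 0; leaving out PBS replicate 3 gave 1365, 1142, 749, 978 and 1151. The cause was not tested. With no filter, the comparisons without PBS gave 15 to 42 calls. With mitochondrially encoded genes left out, the comparisons with PBS gave 288, 85, 47, 78 and 89 calls in the order above. The replicate block changed no count of the 9 genes called; Aldh1a1 in TTR REVERSIR over scrambled REVERSIR was −0.63 with it (adjusted p = 0.0152), and calls over PBS were 248, 66, 52, 55 and 47. Depth limits Cyp26a1 and Rara most.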
